A study of Rattus norvegicus with 6 samples.

Results

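The 9 guide strands of the let-7 family (let-7a, let-7b, let-7c, let-7d, let-7e, let-7f, let-7g, let-7i and miR-98, all of the 5p arm) were followed in rat myocardium 4 weeks after myocardial infarction. They were taken by name from the 758 miRNAs of the array, and their own difference between the groups divided them into a higher set (let-7b, let-7c and let-7e), a lower set (let-7d, let-7f and let-7g) and the remaining 3. The control group was 3 male Sprague–Dawley rats that were operated on without ligation of the coronary artery (sham), and the model group was 3 male Sprague–Dawley rats in which the left anterior descending coronary artery was tied off. Their age is not given in the sources used here. The labels place the model tissue in the infarct marginal zone, whereas those of the control group name only the myocardium. Total RNA of each rat was hybridised to 1 single-colour Agilent miRNA array, so n = 3 per group. Because the division was chosen from the same arrays, the differences of the members between the groups are given as a description, with their errors and without a test.

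MiRNAs are processed from hairpin precursors, and the strand that is loaded into the silencing complex is called the guide strand. The let-7 miRNAs recognise mRNAs through a shared seed, the bases near the 5′ end that pair with the target, and they are known for restraining growth genes in differentiated tissues. The RNA-binding protein Lin28 blocks the maturation of their precursors in immature cells. The adult heart is known to hold large amounts of several members, which are encoded in clusters on different chromosomes, some of them together with miR-99, miR-100 and miR-125.

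The mature sequences below were taken from RefSeq on the GRCr8 assembly, which lists all 9 members. They are shown because the array must separate miRNAs that are almost alike, and the seed (bases 2 to 8) is in capitals.
rno-let-7a-5p: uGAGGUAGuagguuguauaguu
rno-let-7b-5p: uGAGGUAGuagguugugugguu
rno-let-7c-5p: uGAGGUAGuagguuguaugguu
rno-let-7e-5p: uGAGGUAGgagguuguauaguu
rno-let-7d-5p: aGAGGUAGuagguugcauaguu
rno-let-7f-5p: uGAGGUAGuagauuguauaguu
rno-let-7g-5p: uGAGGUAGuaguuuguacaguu
rno-let-7i-5p: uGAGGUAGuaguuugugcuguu
rno-miR-98-5p: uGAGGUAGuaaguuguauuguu
All 9 seeds were identical. Of the 685 miRNAs of the array with a sequence in this table, 0 outside the family had this seed. Counted from 1 at the 5′ end, with the base of let-7a first, let-7c differed from let-7a by A19G, let-7e by U9G and let-7f by G12A. Let-7b differed by A17G and A19G, let-7d by U1A and U16C, let-7g by G12U and U18C, and miR-98 by G11A and A19U. Let-7i stood farthest from let-7a, with 4 differences. Let-7b and let-7c, which were both higher in the model group, differed from each other at 1 position.

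The members lie at 12 loci on 6 chromosomes in GRCr8. Let-7b (chr7:118684044-118684065) follows one of the let-7c genes (chr7:118683636-118683657), 387 bases apart on the plus strand. The other let-7c gene (chr11:29688127-29688148) lies in the cluster of miR-99a and miR-125b, and let-7e (chr1:67350243-67350264) lies in that of miR-99b and miR-125a, 152 bases from miR-99b-5p. Let-7d (chr17:16322273-16322294) shares a cluster with 1 gene of let-7a and 1 of let-7f (chr17:16320508-16320529). The second gene of let-7f (chrX:24460052-24460073) lies 590 bases from miR-98. Let-7g (chr8:115701026-115701047) and let-7i (chr7:60527935-60527956) had no other member or miR-99, miR-100 or miR-125 gene within 100000 bases. The second let-7a gene lies 6891 bases from miR-100-5p on chromosome 8. None of the 4 loci of let-7b, let-7c and let-7e was in a cluster with a locus of let-7d, let-7f or let-7g.

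All 9 members were detected on all 6 arrays, so every member passed the filter on low values. A miRNA signal is the background-subtracted brightness summed over its detected probes, in arbitrary units, and detection of a probe required a signal above 3 times its error. The arrays held 1806 probes, and 206 to 222 miRNAs were detected per array, 198 of them on all arrays. No spot was saturated, and the 6 arrays shared 1 slide and 1 scan time. Of the 144 spots of the members per array, 29, 15 and 22 were flagged as outliers on control arrays 1, 2 and 3. On model arrays 1, 2 and 3 the counts were 13, 12 and 11, and the part of these flags in the member values was not tested. Row 1 of that slide held the controls with model array 1, and row 2 held model arrays 2 and 3. To compare arrays, the 75th percentile of those 198 miRNAs was set to 1 on each of them, and log2 was taken. Of the lists of miRNAs known for cardiac cell types, the log2 of the summed scaled signal of the 4 cardiomyocyte miRNAs lay from 5.66 to 6.03 in control hearts against from 4.81 to 5.21 in model hearts, and 2 of 4 fell in limma. The 4 fibroblast or matrix miRNAs lay from 1.95 to 2.25 in control hearts against from 3.35 to 3.85 in model hearts, and 4 of 4 rose. They were miR-21-5p, miR-199a-5p, miR-199a-3p and miR-214-3p. All of them were already reported by the study as higher in the model group on these same arrays. Their rise was therefore known when the list was made, and nothing is read from this count. The 2 endothelial miRNAs both fell, and their sum lay from 3.03 to 3.20 in control hearts against from 2.58 to 2.74 in model hearts. The sum of the red blood cell miRNAs, 2 of 3 detected and 1 of 3 lower by the test, lay from 0.84 to 1.07 and from 0.17 to 0.52. The lower one, miR-486, made up most of this sum, while miR-451-5p overlapped between the groups (adjusted p = 0.132 in limma). The sum of the leukocyte miRNAs, of which 1 of 5 rose, 1 of 5 fell and 1 was detected on no array, lay from 1.08 to 1.26 and from 0.61 to 0.89. Most of it was miR-150-5p, the 1 that fell, with a log2 difference of -0.60. MiR-155-5p rose by 1.07, and miR-223-3p (0.15) and miR-142-3p (-0.073) overlapped between the groups. MiR-1-3p likewise made up most of the cardiomyocyte sum, so such sums mainly follow their brightest miRNA. The smooth muscle sums overlapped, from 2.33 to 2.75 and from 2.25 to 2.45, with 0 of 2 called by limma at an adjusted or an unadjusted p under 0.05. Fewer cells of a type and less RNA per cell cannot be told apart in these bulk samples, and the part of these lists in the let-7 values was not tested. Among the listed miRNAs, miR-142-5p of leukocytes and miR-144-3p of red blood cells were at 0 on all arrays, and miR-208a-3p of cardiomyocytes was at 0 on model array 2.

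Let-7b, let-7c and let-7e were brighter on every model array than on any control array. The signal of let-7b was 2448, 3189 and 2393 on control arrays 1, 2 and 3 against 3772, 4559 and 3635 on model arrays 1, 2 and 3. For let-7c it was 2426, 3176 and 2426 in control hearts against 3811, 4398 and 3674 in model hearts. Let-7e had 259, 333 and 265 in control hearts against 432, 451 and 379 in model hearts. Signals of different probes are not comparable in amount, so the lower brightness of let-7e does not show fewer molecules. After scaling, the log2 signal of let-7b was 4.06 ± 0.021 (SD, n = 3) in control hearts against 4.40 ± 0.18 in model hearts. That of let-7c was 4.06 ± 0.0055 in control hearts against 4.40 ± 0.15 in model hearts, and that of let-7e was 0.84 ± 0.023 and 1.16 ± 0.070. The groups did not overlap for any of these 3 members before or after scaling. The control arrays lay close together, and among the model arrays array 1 was nearest to them and array 2 farthest from them. The log2 differences, model minus control, were 0.34 (standard error 0.11) for let-7b, 0.33 (standard error 0.095) for let-7c and 0.32 (standard error 0.072) for let-7e, which are folds of 1.26, 1.26 and 1.25. With slide row as a block, which sets model array 1 against the 3 controls, they were 0.15, 0.16 and 0.25.

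For let-7d, let-7f and let-7g the model group lay below the control group without overlap after scaling, but not before it. The signal of let-7d was 885, 1270 and 867 in control hearts against 1099, 1002 and 945 in model hearts. For let-7f it was 1185, 1707 and 1098 in control hearts against 1410, 1420 and 1224 in model hearts. For let-7g it was 613, 917 and 565 in control hearts against 725, 692 and 612 in model hearts. Before scaling the groups overlapped for all 3, with control array 2 the brightest. After scaling, every model array was below every control array for each of the 3. The log2 differences were -0.21 (standard error 0.081) for let-7d, -0.19 (standard error 0.091) for let-7f and -0.26 (standard error 0.10) for let-7g. With the row as a block they were -0.21, -0.25 and -0.27. Here the control arrays were spread, with an SD of 0.16 for let-7g, and the model arrays lay close together, with an SD of 0.014.

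The remaining members overlapped between the groups. The signal of let-7a was 1910, 2656 and 1831 in control hearts against 2539, 2557 and 2254 in model hearts, with a scaled log2 difference of -0.023 (standard error 0.078). Let-7i had 660, 987 and 580 in control hearts against 971, 1027 and 829 in model hearts, with a log2 difference of 0.13 (standard error 0.12). MiR-98, the dimmest member, had 22.4, 33.6 and 22.3 in control hearts against 33.7, 30.5 and 28.1 in model hearts, with a log2 difference of 0.021 (standard error 0.088). By the difference that divided the family, let-7e at 0.32 was the lowest of the higher members and let-7i at 0.13 the next below it, while let-7f at -0.19 was the nearest of the lower members and let-7a at -0.023 the next above it.

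**Figure D1:**
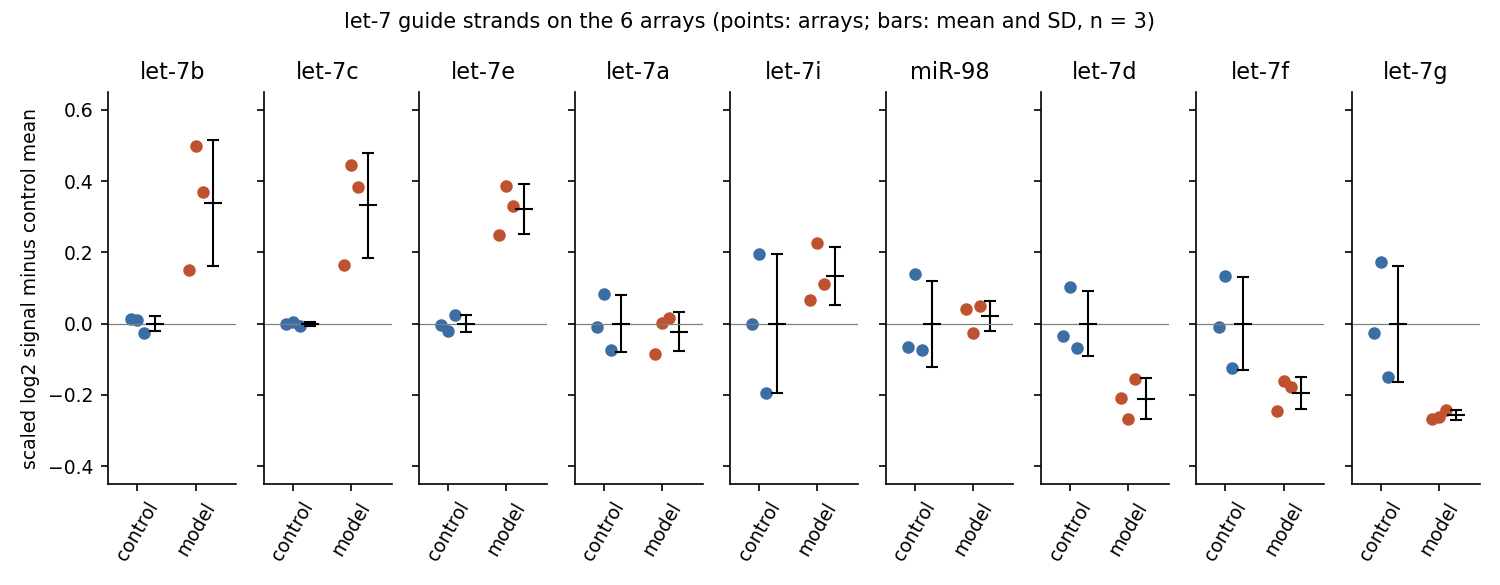
Scaled log2 signal of the 9 let-7 guide strands on the 3 control and 3 model arrays, each minus the mean of the control group (points are arrays, black bars the mean and SD, n = 3). Let-7b, let-7c and let-7e lie above the control arrays, let-7d, let-7f and let-7g below them with this scaling, and let-7a, let-7i and miR-98 overlap.

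Read against the whole table, the division has no fixed zero. Among the 198 miRNAs seen on every array the median log2 difference was -0.15, and that of the 9 members was 0.021. Relative to that median, let-7b stood at 0.49, let-7c at 0.48 and let-7e at 0.47, let-7i at 0.28, miR-98 at 0.17 and let-7a at 0.13. Let-7d stood at -0.062, let-7f at -0.046 and let-7g at -0.11, so these 3 lay near the middle of all miRNAs. Of the 214 miRNAs kept, 28 had a higher log2 difference than let-7b, and 71 had a lower one than let-7g. In limma with Benjamini-Hochberg adjustment over the 214 miRNAs, 1 of the 9 members, let-7e, had an adjusted p under 0.05, beside 22.9% of all 214 (10.3% higher and 12.6% lower). It was not called when any 1 control array, or model array 2 or 3, was left out. With the authors' normalized values, and with quantile normalization, the member called was let-7g in place of let-7e. The groups did not overlap for 6 of the 9 members, 3 higher and 3 lower, beside 47.2% of all 214, which comprise 16.4% higher and 30.8% lower. Nothing is read from these counts, since the same contrast chose the division. Without scaling, let-7d and let-7f had log2 differences of 0.032 and 0.047 and let-7g one of -0.015. With the total signals as deposited all 9 members were above 0, although their own totals were unchanged and only the scaling factor of each array differed.

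**Figure D2:**
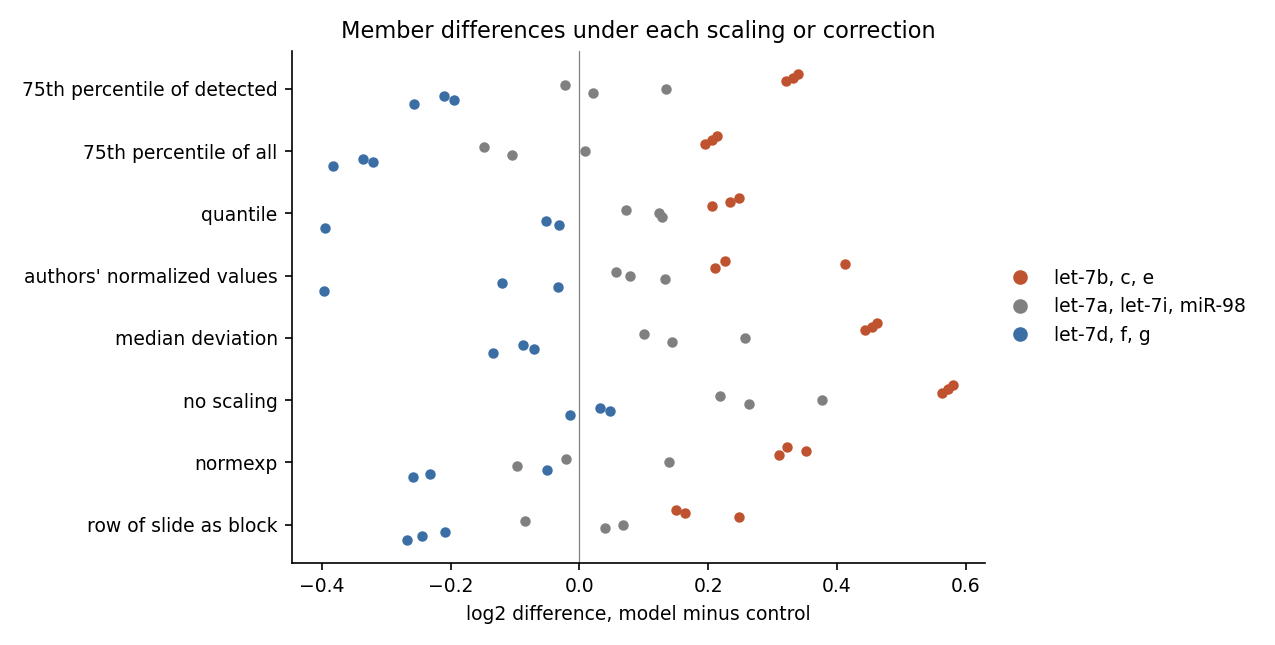
Log2 difference between model and control group of each member (points) under 8 ways of scaling or correcting the arrays. The whole family shifts along the axis from one scaling to the next, while let-7b, let-7c and let-7e stay to the right of let-7d, let-7f and let-7g in each row.

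A ratio of members within an array does not depend on the scaling factor of that array. The mean log2 signal of let-7b, let-7c and let-7e minus that of let-7d, let-7f and let-7g was 0.42, 0.25 and 0.51 on control arrays 1, 2 and 3 against 0.82, 1.07 and 0.95 on model arrays 1, 2 and 3. The group values were 0.39 ± 0.13 (SD, n = 3) and 0.94 ± 0.12, and the groups did not overlap. The difference was 0.55, a rise of 46.5% in the ratio. Each of the 9 pairs of a member of the first set with one of the second had groups that did not overlap, with differences between 0.52 and 0.60. This follows from the choice of the sets, since their scaled values did not overlap and scaling cancels in a ratio. Within a set, whose members were grouped by the direction of their differences, the ratios moved little between the groups. The 3 pairs among let-7b, let-7c and let-7e differed between the groups by 0.0074 to 0.018, and the 3 pairs among let-7d, let-7f and let-7g by -0.016 to 0.063, and the groups overlapped in all 6. Let-7b and let-7c were the closest pair, with log2 ratios of 0.013, 0.0058 and -0.020 in control hearts against -0.015, 0.052 and -0.016 in model hearts. Within row 1 of the slide, where model array 1 lay beside the 3 control arrays, the difference of the mean log2 ratio was 0.43. Of its 21 alternatives, 6 left it as it was to within 0.0001 (other scaling factors, the deposited totals, all probes, and the balanced replicate block), since these leave the ratio as it is on each array or in the group means. Over the other 15 it ran from 0.39 to 0.86, and its sign is no sign of stability, since the same contrast chose the sets.

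The summed signal of the 9 members was 10408, 14269 and 10047 in control hearts against 14793, 16137 and 13579 in model hearts, and the groups overlapped. The log2 of the scaled sum was 6.17 ± 0.065 (SD, n = 3) in control hearts against 6.30 ± 0.10 in model hearts, a difference of 0.13, with overlap. Of the family signal, which is a share of brightness and not of molecules, let-7b made up 23.5%, 22.3% and 23.8% in control hearts against 25.5%, 28.3% and 26.8% in model hearts. Let-7c made up 23.3%, 22.3% and 24.1% in control hearts against 25.8%, 27.3% and 27.1% in model hearts. Together with let-7e, they held 49.0% ± 1.86 (SD, n = 3) of the family signal in control hearts against 56.4% ± 2.07 in model hearts. The share of let-7d, let-7f and let-7g was 26.1% ± 1.09 in control hearts against 20.5% ± 1.29 in model hearts. Shares sum to 100%, so a larger share of the higher set lowers those of the others, and the separation of the 2 sets' shares follows from how they were chosen. The share of let-7a was 18.4% ± 0.20 and 16.5% ± 0.66, without overlap although its scaled signals overlapped, and that of let-7i was 6.34% ± 0.57 and 6.34% ± 0.23. As a share of the summed signal of all miRNAs, the family was at 17.5%, 16.9% and 17.4% in control hearts against 20.6%, 23.7% and 21.1% in model hearts. The same sum holds miR-1-3p, a miRNA of muscle, whose signal was 6929, 11740 and 7013 in control hearts against 6417, 5117 and 5861 in model hearts. MiR-133b-3p was brighter, with a mean scaled log2 signal of 5.73 beside 5.33 for miR-1-3p, and had a log2 difference of -0.72. The part of any single miRNA in the share of the family was not tested.

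**Figure D3:**
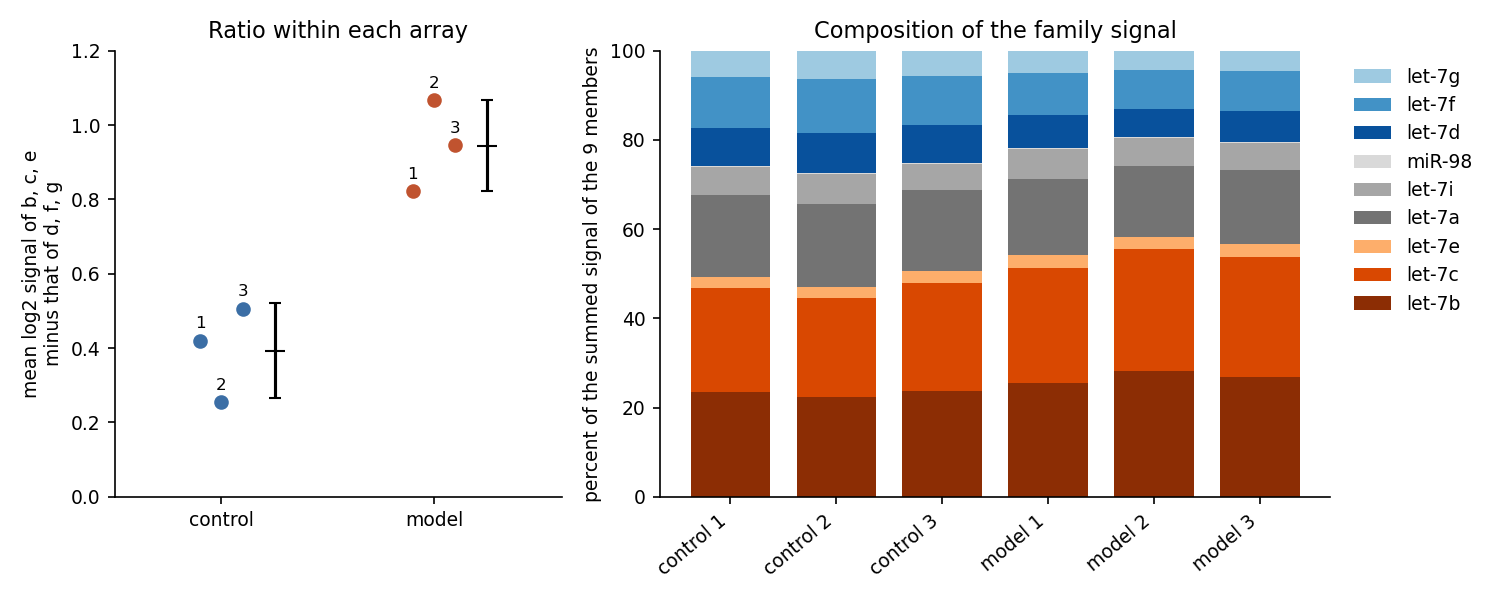
Left, mean log2 signal of let-7b, let-7c and let-7e minus that of let-7d, let-7f and let-7g on each array (points numbered by replicate, bars mean and SD, n = 3), with the model arrays at 0.82 to 1.07 above the control arrays at 0.25 to 0.51. Right, each member as a percent of the summed signal of the 9 members on each of the 6 arrays, with the let-7b, let-7c and let-7e bands larger and the let-7d, let-7f and let-7g bands smaller on the model arrays.

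Because the members are so alike, a probe of one may also bind another, which is called cross-hybridization. Each member had 2 probes, all 18 probes were detected on all arrays, and the probes of a member were compared with each other. All 6 probes of let-7b, let-7c and let-7e were higher in the model group, with log2 differences from 0.32 to 0.38, and all 6 probes of let-7d, let-7f and let-7g were lower, from -0.27 to -0.18. The brighter and the dimmer probe of a member differed by at most 0.059 in their log2 difference. With the brighter probes alone, the mean log2 ratio of the sets differed between the groups by 0.55, and with the dimmer probes alone by 0.57. A member's signal is the sum of its 2 probes, so these directions and ratios follow from the choice of the sets. Both probes of a member may bind the same relative, so their likeness does not show how much either does. The ratio of the brighter to the dimmer probe overlapped between the groups for all 9 members. The steadiest was let-7i, whose ratio ran from 2.66 to 2.78 over the 6 arrays, and the least steady was miR-98, from 1.43 to 1.82.

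**Figure D4:**
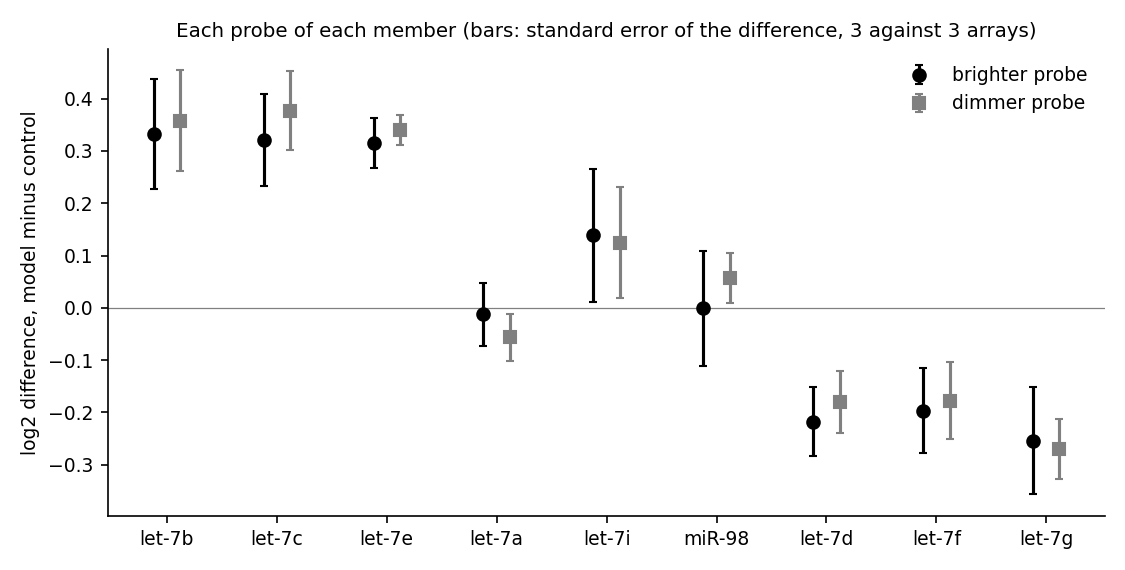
Log2 difference between model and control group of the brighter (circles) and the dimmer (squares) probe of each member, with the standard error of the difference over 3 against 3 arrays. The probes of a member differ by at most 0.059, and the 6 probes of let-7b, let-7c and let-7e lie above 0 while those of let-7d, let-7f and let-7g lie below it.

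The dimmest members give an upper bound on what their probes can take up from a relative. MiR-98, which differs from let-7a and from let-7c at 2 positions each, had a signal of 1.17% to 1.33% of that of let-7a and 0.69% to 1.06% of that of let-7c. These shares are the most that the miR-98 probes can have taken up from either. Let-7e differs from let-7a at 1 position, and its signal was 12.5% to 17.6% of that of let-7a, a looser limit. That share was 13.5% ± 0.96 (SD, n = 3) in control hearts against 17.1% ± 0.44 in model hearts. Let-7b and let-7c differ at 1 position, and the signal of let-7b was 98.6% to 103.7% of that of let-7c. This sets no useful limit, so the 2 members may not have been measured separately. Let-7c, let-7e and let-7f each differ from let-7a by a single base. Relative to let-7a on the same array, the log2 ratio of let-7c was higher by 0.35 in the model group, that of let-7e higher by 0.34 and that of let-7f lower by 0.17, each without overlap of the groups. When 1%, 5% or 10% of the signal of the most similar member was subtracted from each member, the difference of the mean log2 ratio between the sets was 0.56, 0.64 and 0.86. MiR-98, which is in neither set, was at or below 0 with each of these. With 10% subtracted, the ratio was 0.058, -0.26 and 0.23 in control hearts against 0.72, 1.02 and 0.86 in model hearts. Subtracting 10% of let-7a removes most of the let-7e signal, so the larger difference does not show a stronger division. With 20% subtracted, let-7e fell to 0 or below, and no ratio was computed. How much each probe binds its relatives was not measured on these arrays.

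The base composition of the members was compared with their differences. The division did not use base composition, but it was made from these same differences. Let-7b has 10 G or C bases, let-7c, let-7d, let-7e and let-7i have 9, let-7a and let-7g have 8, and let-7f and miR-98 have 7, all in 22 bases. Across the 9 members, G and C content and log2 difference had a Pearson correlation of 0.62, as a description over miRNAs that share arrays and sequence. Let-7d lay apart from it, with 9 G or C bases and a log2 difference of -0.21. Across the 173 other miRNAs with a sequence that were detected on all arrays, the correlation was -0.047. The correlation between mean log2 signal and log2 difference was 0.16 over the members.

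The miRNAs encoded beside the members, and the passenger strands of the same hairpins, were measured on the same arrays. Of 23 such miRNAs listed, 21 were on the array, 11 were detected on at least 1 array and 9 passed the filter. In limma, 1 of these 9 rose and 0 fell at an adjusted p under 0.05, and 3 of the 9 had an unadjusted p under 0.05, beside 22.9% and 37.9% of all 214. Their median log2 difference was 0.17, beside -0.14 for all 214 miRNAs kept. The one that rose was miR-125b-5p, which is made from precursors in the let-7c and let-7a clusters. It gave signals of 1051, 1311 and 974 in control hearts against 1842, 2260 and 1666 in model hearts, with a log2 difference of 0.55 (standard error 0.11, adjusted p = 0.0217 in limma after Benjamini-Hochberg correction). Over 23 alternatives its adjusted p ran from 1.7e-08 to 0.177 and was under 0.05 in 14. It was not under 0.05 when any 1 control array, or model array 3, was left out.

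The other partners in these clusters did not pass the test. MiR-99b-5p and miR-125a-5p, from the let-7e cluster, had log2 differences of 0.25 (standard error 0.091, adjusted p = 0.120 in limma) and 0.083 (standard error 0.076, adjusted p = 0.421 in limma). MiR-125a-3p, the other arm of the latter hairpin, had -0.22 (standard error 0.064, adjusted p = 0.0593 in limma). MiR-99a-5p and miR-100-5p had 0.17 (standard error 0.095, adjusted p = 0.224 in limma) and 0.19 (standard error 0.082, adjusted p = 0.153 in limma). The dim miR-99a-3p, with signals from 1.65 to 5.44, had 0.30 (standard error 0.35, adjusted p = 0.544 in limma). MiR-125b-2-3p was detected on model arrays 1 and 2 only, at 2.25 and 3.11, and was not kept. The partners miR-99b-3p, miR-100-3p and miR-125b-1-3p were detected on no array.

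Of the 12 passenger strands listed, let-7a-2-3p and let-7c-2-3p were not matched to a name on the array, and 7 of the other 10 were detected on no array. Let-7b-3p had signals of 16.8, 17.4 and 15.1 in control hearts against 13.1, 17.4 and 16.9 in model hearts, with a log2 difference of -0.31 (standard error 0.19, adjusted p = 0.271 in limma). The ratio of its guide strand let-7b-5p to it was 146, 183 and 159 in control hearts against 287, 261 and 216 in model hearts. The groups did not overlap in this ratio, which was higher by 0.64 on the log2 scale in the model group and holds the let-7b-5p difference that chose the division. Let-7d-3p lay near the detection limit, with signals from 1.48 to 2.07, and 4 of its 6 scaled values were at the floor. Let-7c-1-3p was detected on model array 3 only, at 1.16.

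**Figure D5:**
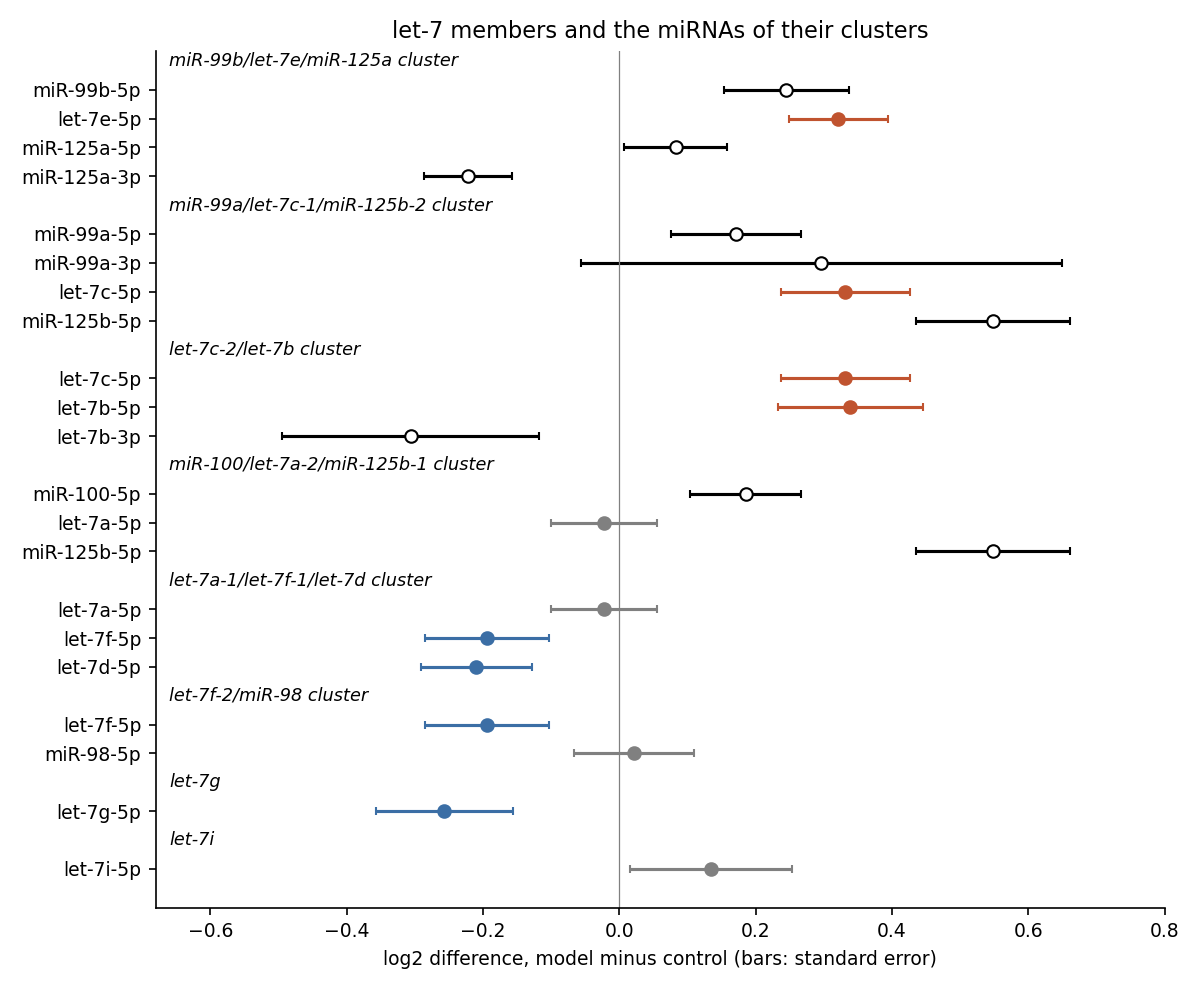
Log2 difference between model and control group, with its standard error from limma, for the members (filled points) and the kept miRNAs of their clusters except let-7d-3p (open points), in 8 groups by locus. Let-7a, let-7c, let-7f and miR-125b-5p appear at each of their loci. Let-7c and let-7b lie together at 0.33 and 0.34, let-7f and let-7d at -0.19 and -0.21, and let-7a, which shares loci with let-7d, let-7f and miR-100, lies near 0.

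Among the 189 other miRNAs detected on all arrays, those most like the mean log2 signal of let-7b, let-7c and let-7e over the 6 arrays were miR-125b-5p, with a Pearson correlation of 0.98, miR-152-3p with 0.98 and miR-3473 with 0.98. Those most like let-7d, let-7f and let-7g were miR-352, with 0.97, miR-128-3p with 0.95 and miR-29c-3p with 0.95. These correlations describe 6 arrays in 2 groups. Because the sets were chosen for their group difference, miRNAs picked for likeness to them differ between the groups in the same direction by that choice, and nothing is read from it. The log2 difference of miR-125b-5p was 0.55, that of miR-152-3p 0.73 and that of miR-3473 0.33. For miR-352, miR-128-3p and miR-29c-3p it was -0.17, -0.42 and -0.36.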

How the data were processed

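The authors deposited the output of Agilent Feature Extraction (version 10.7.1.1 in the submitters' processing notes), where intensity has the background removed but no scaling across arrays, and a table of normalized log2 values whose method is not stated (column medians -3.22, -3.30, -3.25, -3.31, -3.31 and -3.31, each also the column's lowest value), which served as an alternative. Each miRNA signal was rebuilt as the sum of its distinct probes over 3 times their error, because on 47 to 51 miRNAs per array the deposited total exceeded the miRNA's own probes by more than a relative tolerance of 0.0001. The totals of the 9 members were not affected. The scaling factor of an array was its 75th percentile over 198 miRNAs found on all 6, with a floor of -6.50 (log2). A miRNA was kept if either group had it on all 3 arrays (214). For the groups, named from the labels, limma (version 3.58.1, R 4.3.3) was run with lmFit and eBayes and Benjamini-Hochberg adjustment at 0.05. A run on simulated data used changes larger than those of the members, so it does not show how the test performs at theirs. Tables and plots were made in Python (3.11.15) by numpy (2.4.6), pandas (2.3.3) and matplotlib (3.10.9). The number of arrays and the detection limit (lowest detected signals 1.16 to 1.60) limit the precision. The study's methods state that tissue samples were drawn at random from each group, and p-values measure the spread between these 3 samples per group.

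The members, the list of related miRNAs (passenger strands, and the miR-99, miR-100 and miR-125 miRNAs of the same clusters) and the cell type lists were chosen with earlier results of these data known. Named were the members, the related miRNAs detected on any array and, for each set, the 3 miRNAs most correlated with it. Sequences and positions came from RefSeq on GRCr8, in which 685 of 758 names matched (90.4%). The files name no genome build.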

Additional observations from a re-analysis of the deposited data

How the results depend on the processing

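The difference of the mean log2 ratio of let-7b, let-7c and let-7e over let-7d, let-7f and let-7g (0.55) was moved by more than the SD between replicates under 2 of its alternatives, quantile normalization (0.39) and subtraction of 10% of the most similar member (0.86). The subtraction of 1% was chosen after seeing the data, and subtraction of 20% gave no ratio. With each array left out in turn it ran from 0.48 to 0.61. The difference of the family total (0.13) was 0.0056 when scaled on every miRNA, 0.37 without scaling, 0.25 with centring on the median deviation, 0.47 with the totals as deposited and 0.015 with slide row as a block, and 0.089 to 0.19 with arrays left out. Let-7b, let-7c, let-7e and let-7i were above 0 in all 18 alternatives run on them, while let-7d and let-7f were below 0 in 16 and let-7g in 17. The same contrast chose the division, and some of these alternatives leave the values unchanged, so these counts do not show stability. With slide row as a block let-7b was at 0.15 and let-7c at 0.16.

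Of all 214 miRNAs, 49 were called, 22 higher and 27 lower. The count was 19 without scaling, 9 without the detection filter, 29 with slide row as a block and 26 with the methods' t-test after adjustment, and 14 to 40 with arrays left out, lowest without control array 1 and 28 without control array 3. The split was 19 higher and 47 lower when scaled on every miRNA, 19 and 0 without scaling, 30 and 16 with the median deviation, 23 and 14 with the authors' normalized values and 35 and 1 with the totals as deposited. These moved the median log2 difference of detected miRNAs by -0.13, 0.24, 0.12, 0.043 and 0.29. With the scaling used here let-7e was the member called. Over 23 alternatives let-7e was called in 11, let-7c in 6, let-7b in 4 and let-7g in 2, the last with quantile normalization and the authors' normalized values, where let-7e was not called. Over the same alternatives, 9 to 66 miRNAs of the table were called. Nothing is read from the counts of members, since the same contrast chose the division. Of the related miRNAs, 1 was called, 3 with the median deviation, 5 with the totals as deposited, 0 with the averaged processed signal, 0 with the row as a block, and 0 to 2 with arrays left out. Whether the replicate numbers pair the rats cannot be told from 3 arrays per group. The correlations of same-numbered deviations were -0.26, 0.032 and 0.24, and differently numbered ones reached -0.30 and 0.22. A balanced replicate block cannot move the family total or the ratio (0.13 and 0.55), and with it 16 miRNAs, 0 related miRNAs and 0 members were called. With the totals as deposited, the members' own signals were unchanged, so their shift is that of the scaling factor. The causes of the other differences were not tested.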
